A study of Mus musculus with 20 samples.

Results

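Livers of 6 male C57BL/6J mice kept under 137Cs gamma rays at a medium dose-rate were compared with RNA pools of unirradiated livers. The comparison takes 8 of the 20 arrays of the series: the 6 medium arrays (M1-1 to M1-3 and M2-1 to M2-3) and both control pools (C1 and C2), chosen by their titles. Medium mice of experiment 1 received 0.858 mGy per day for 485 days, 416 mGy in total, and medium mice of experiment 2 received 1.00 mGy per day for 401 days, 401 mGy in total. The pool of experiment 1 held RNA of 3 unirradiated mice and the pool of experiment 2 held RNA of 6, whereas each irradiated array held 1 mouse. The other 12 arrays came from 6 mice at a low and 6 at a high dose-rate (0.042 and 16.6 mGy per day in experiment 1, 0.05 and 20.0 in experiment 2), with 3 mice per experiment at each level. All mice were specific pathogen free and 8 weeks old at the start, and livers were taken when irradiation ended. The sources used here do not give the hour of the day at which they were taken.

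Gamma rays break DNA, and the liver answers acute doses through p53 and its targets, among them cell cycle inhibitors and repair genes. Liver transcripts also follow the hour of the day, feeding, glucocorticoids and growth hormone, so genes of the clock, lipid metabolism and protein folding vary between unexposed animals as well. A pool of RNA averages its mice and shows nothing of the spread among them. With 1 pool per experiment, the spread used in the main test came mostly from the irradiated mice. Disagreement between the experiments at each level, the pools included, also entered it. Each pool counted there like 1 mouse, though it held RNA of several.

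Signals are MAS5 values on a linear scale, and differences are medium minus control on log2(signal + 7.12) within experiment, with their standard error (SE). The linear model of limma used all 20 arrays and 11216 genes, and a gene passed at a Benjamini-Hochberg adjusted p under 0.05. Each mouse is 1 array, so the p-values rest on the spread among single arrays. The markers of hepatocytes were abundant in every medium liver, with summed signals of 434334 to 502840 over 10 genes, against 412196 and 466258 in the pools. As a sign of RNA integrity, the 3' probe set of Gapdh over its 5' probe set gave 0.701 to 0.753 in the medium mice and 0.69 in the pool of experiment 1, and 0.877 to 0.993 in the medium mice and 0.916 in the pool of experiment 2. Array medians of signal were 84.7 to 96.7 in the medium mice, against 85.4 and 81.9 in the pools.

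The medium livers differed from the pools at 3 of the 11216 genes, 0.0267%, and all 3 were higher. They were Ccdc8, a subunit of the 3M complex that works with the scaffold protein Cul7, Rnf125, a RING-type ubiquitin ligase that marks RIG-I for degradation, and C730049O14Rik, a RIKEN transcript. The current RefSeq table lists C730049O14Rik as an older name of Rnf125, so the 3 array symbols stand for 2 current genes. At an unadjusted p under 0.05 there were 671 genes, 5.98%, of which 392 (3.5%) were higher and 279 (2.49%) lower, and limma called no lower gene. This rests on the fit. From the medium arrays and pools alone limma called 9 genes, 5 of them lower (Herpud1, Lpin1, Lpin2, St3gal5 and Zbtb16), and Ccdc8 did not pass (adjusted p = 0.173). With pools weighted by their number of mice it called 260 genes, 144 higher and 116 lower. Over all genes tested 51.2% were higher, and the median difference was 0.0063.

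Ccdc8 (probe set 1444761_at) had signals of 108, 166 and 116 in the experiment 1 mice, against 13.9 in their pool, and 118, 136 and 105 in the experiment 2 mice, against 35.8 in theirs. Every medium mouse lay above both pools, and the gap from the lowest mouse to the higher pool was wider than the range of the mice. Ccdc8 rose by 2.12 ± 0.34 (SE, adjusted p = 0.0159 by limma), to a mean of 125 ± 22.8 (SD, n = 6). Both pool signals lay under the median of their array, and the files used here hold no detection calls, so the pools are not shown to be above background and the size of the rise is uncertain. With a pseudocount at the 25th percentile it was 1.59 (adjusted p = 0.052).

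Rnf125 (1429399_at) was among the abundant transcripts, with signals of 18810.5, 21462 and 16520.0 in the experiment 1 mice, against 10308 in their pool, and 17337, 17950.1 and 19024 in the experiment 2 mice, against 12083 in theirs. The groups did not overlap, and the 6 mice stayed close to each other. Rnf125 rose by 0.73 ± 0.11 (adjusted p = 0.0159 by limma), with a mean of 18517 ± 1716 in the medium mice (SD, n = 6). The probe set named C730049O14Rik (1435084_at) gave 20718, 27115 and 22417 in the experiment 1 mice, against 10362 in their pool, and 19106, 21966 and 21482 in the experiment 2 mice, against 12871 in theirs. It rose by 0.93 ± 0.15 (adjusted p = 0.0159 by limma), again with every mouse above both pools.

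Since both probe sets are assigned to Rnf125 in the current table, their signals can be read as repeated measures of related transcripts and not as separate genes. The ratio of C730049O14Rik to Rnf125 signal was 1.1 to 1.36 in the medium mice, against 1.01 and 1.07 in the pools, and ran from 0.972 to 1.36 over all 20 arrays. The table holds 10 array symbols among the genes tested that are now synonyms of another gene tested.

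The 3 differences were present in both experiments, at 2.68 and 1.56 for Ccdc8, 0.87 and 0.58 for Rnf125, and 1.17 and 0.69 for C730049O14Rik, in experiments 1 and 2. Tested in experiment 1 alone all 3 passed, and in experiment 2 alone none did (adjusted p = 0.833 for Ccdc8, 0.442 for Rnf125 and 0.806 for C730049O14Rik by limma). They also rest on few control arrays. Without the pool of experiment 1 none of the 3 passed, at 1.65 for Ccdc8 (adjusted p = 0.627), 0.56 for Rnf125 (0.627) and 0.70 for C730049O14Rik (0.778). Without the pool of experiment 2 all 3 passed among 22 called genes. All 6 medium mice lay above both pools at 375 genes, 3.34% of those tested, and below both at 294, 2.62%. Each mouse was above the pool of its own experiment at 988 genes, 8.81%, and below it at 848, 7.56%.

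**Figure D1:**
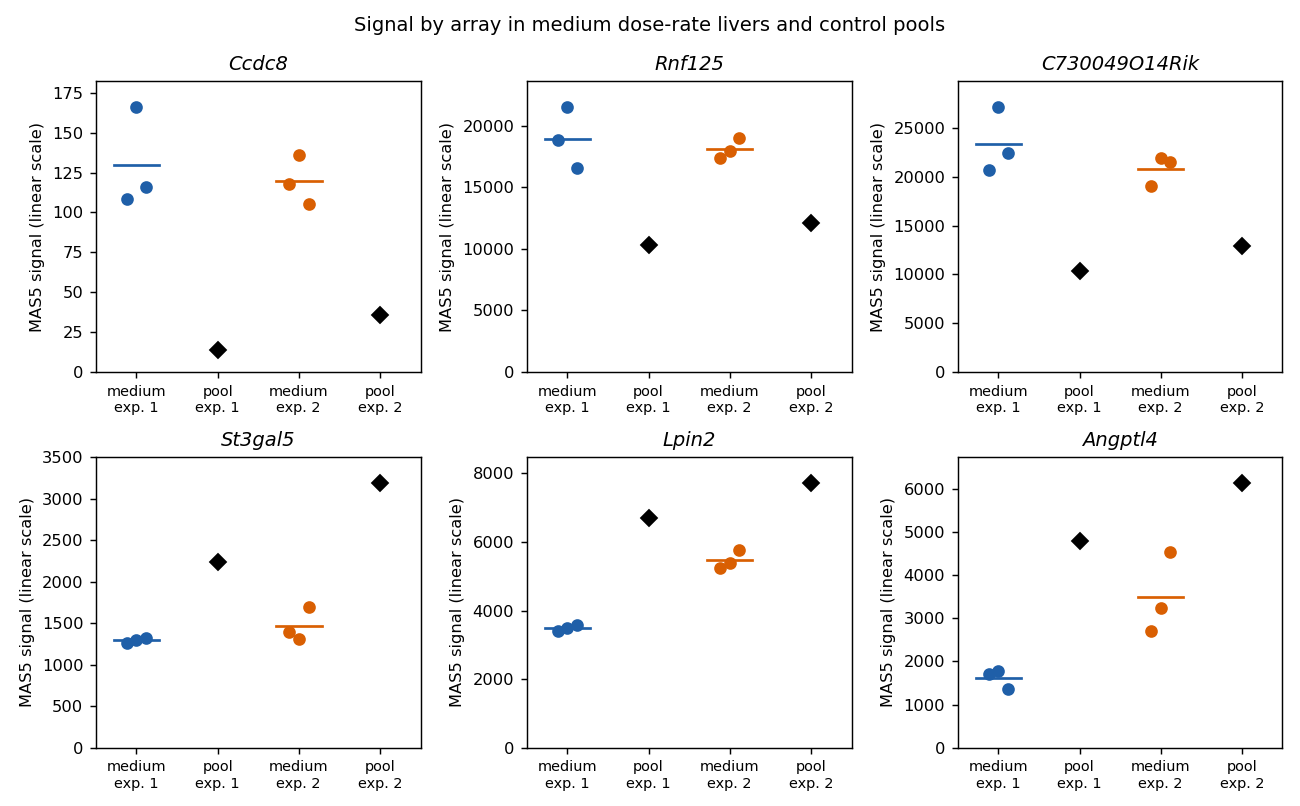
MAS5 signal on a linear scale of 6 genes, by array, with medium mice (circles, 3 per experiment, horizontal line at their mean) beside the pool of their experiment (diamond). The medium mice lie above both pools for Ccdc8, Rnf125 and C730049O14Rik, which passed the test, and below both for St3gal5, Lpin2 and Angptl4, which did not pass.

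The other dose-rates place these values. Ccdc8 averaged 125 ± 22.8 in medium, 133 ± 47.3 in low and 121 ± 31.3 in high dose-rate mice (SD, n = 6 each). The difference of medium from low was -0.048 ± 0.24, with a 95% interval of -0.55 to 0.46, and from high 0.057 ± 0.24, with -0.45 to 0.56. Rnf125 averaged 18517 ± 1716 in medium mice, 14929 ± 1096 in low and 19905 ± 2389 in high. Medium minus low was 0.31 ± 0.080 for Rnf125, with an interval of 0.14 to 0.48 (adjusted p = 0.366 by limma), and medium minus high was -0.10 ± 0.080, with -0.27 to 0.066. For C730049O14Rik the differences were 0.34 ± 0.11 from low (adjusted p = 0.478) and -0.043 ± 0.11 from high. The intervals of Rnf125 and C730049O14Rik against low lie above 0 gene by gene, and neither difference passed over all genes.

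No gene passed in medium against low or in medium against high, where limma gave 889 (7.93%) and 431 (3.84%) genes at an unadjusted p under 0.05. Nearest to the threshold against low were Nop58, a protein of the box C/D small nucleolar particles (-0.65 ± 0.13, adjusted p = 0.299), Tbcel, a tubulin-folding cofactor (0.35 ± 0.071), and Pde4b, a cyclic AMP phosphodiesterase (1.08 ± 0.23), the other two with the same adjusted p. Pde4b had signals of 663, 644 and 904 in the experiment 1 mice, against 321 in their pool, and 883, 767 and 659 in the experiment 2 mice, against 318 in theirs. All medium mice were above both pools, and it was 1.21 ± 0.32 from control (adjusted p = 0.305). Nearest against high were H2bc22, a histone H2B gene (-1.50 ± 0.30, adjusted p = 0.412), Ccdc93, a subunit of an endosomal sorting complex (0.51 ± 0.10), and Nfil3, a repressor of clock output genes (-0.73 ± 0.15), again with the same adjusted p.

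Among the 10 genes next in order on the higher side, none passed (adjusted p 0.116 to 0.293). Tcf21, a transcription factor of mesenchymal cells, had signals of 584, 797 and 887 in the experiment 1 mice, against 498 in their pool, and 957, 854 and 1022 in the experiment 2 mice, against 509.9 in theirs. The groups did not overlap, and the difference was 0.72 ± 0.18, while another probe set of Tcf21 gave -0.14. Terf2, which protects telomeres, was at 0.54 ± 0.12 and Nlrc5, which activates MHC class I genes, at 0.73 ± 0.18, and in both some mice of experiment 1 lay under the pool of experiment 2. Another probe set of Terf2 gave 0.035, and a dim one -0.50. Atp8b4, a phospholipid flippase, was at 1.21 ± 0.28 and Casp14, a caspase of keratinising epithelium, at 0.93 ± 0.23, each with all mice above both pools. Their second probe sets, both dim, gave -0.045 and 0.40.

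The other 5 had most of their difference in 1 experiment. Cela3b, a pancreatic elastase, had 188, 116 and 138 in the experiment 1 mice, against 7.87 in their pool, and 202, 262 and 289 in the experiment 2 mice, against 156 in theirs, which gave 1.99 ± 0.47, while its other probe sets gave 0.23, 0.68 and -0.31. Nova2, a neuronal splicing factor, had 117, 135 and 120.0 in the experiment 1 mice, against 20.6 in their pool. Synrg, a partner of clathrin adaptors, had 155, 210.4 and 119.8 in these mice, against 24.4 in the pool. Prrt1, a synaptic membrane protein, had 206, 191 and 166 in the same mice, against 49.5 in the pool, and a second probe set of Prrt1 gave -0.29. Ssr4, a subunit of the translocon-associated complex, had 278, 180.2 and 269 in the experiment 1 mice, against 181 in their pool, and 217, 251 and 248 in the experiment 2 mice, against 53.2 in theirs, and another abundant probe set gave -0.15. Its lowest value was the pool of experiment 2, and it passed, at 1.97 (adjusted p = 0.0482), where the pool of experiment 1 was left out.

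On the lower side the nearest was Lpin2, a phosphatidate phosphatase that makes diacylglycerol for lipid synthesis. Lpin2 had signals of 3395, 3487 and 3569 in the experiment 1 mice, against 6703 in their pool, and 5232, 5373 and 5773 in the experiment 2 mice, against 7711 in theirs. The mice of each experiment differed by little, and all 6 lay below both pools, at -0.72 ± 0.13 (adjusted p = 0.0686 by limma). Its other 3 probe sets gave -0.23, -0.96 and -0.76. Lpin1, a second phosphatidate phosphatase that also acts as a coactivator, had 1925, 1785 and 1710.2 in the experiment 1 mice, against 4075 in their pool, and 3089, 4146 and 2538 in the experiment 2 mice, against 7141 in theirs. It was at -1.17 ± 0.29 (adjusted p = 0.297), with 1 mouse of experiment 2 above the pool of experiment 1, and its other probe set gave -0.93.

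St3gal5, which makes the ganglioside GM3, had signals of 1256, 1304 and 1323 in the experiment 1 mice, against 2244 in their pool, and 1397, 1309.8 and 1702 in the experiment 2 mice, against 3188 in theirs. All medium mice were below both pools, at -0.96 ± 0.18 (adjusted p = 0.0812), and the second probe set gave -0.87. Gne, which starts the synthesis of the sialic acid that St3gal5 transfers, had 2708, 2582 and 2175 in the experiment 1 mice, against 4068 in their pool, and 2925, 2907 and 2432 in the experiment 2 mice, against 4238 in theirs. It too was below both pools in every mouse, at -0.67 ± 0.16 (adjusted p = 0.293), and the second probe set gave -0.25. Of 10 genes of glycosphingolipid synthesis tested, 3 were higher and 7 lower, with a median of -0.13 and none passing. After St3gal5, B4galt5, which makes lactosylceramide, was at -0.74 ± 0.26 and Ugcg, which makes glucosylceramide, at -0.39 ± 0.22. Gla, which removes galactose from such lipids, was at -0.26 ± 0.19.

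Angptl4, a secreted inhibitor of lipoprotein lipase, had 1709, 1771 and 1354 in the experiment 1 mice, against 4782 in their pool, and 2709, 3243 and 4537 in the experiment 2 mice, against 6124 in theirs. The medium mice were below both pools, with the experiment 2 mice nearer to theirs, at -1.21 ± 0.30 (adjusted p = 0.293). A dim second probe set of Angptl4 gave 0.42. Acot1, a cytosolic acyl-CoA thioesterase, had 1997, 2114 and 848 in the experiment 1 mice, against 3092 in their pool, and 1470.2, 1494 and 1613 in the experiment 2 mice, against 2953 in theirs, and was at -0.98 ± 0.25. Rrp9, a protein of ribosomal RNA processing, had 15.0, 28.9 and 19.5 in the experiment 1 mice, against 191 in their pool, and 295, 215 and 214 in the experiment 2 mice, against 356 in theirs, and the gap was wide in experiment 1 (-2.84) and narrow in experiment 2 (-0.56). Herpud1, Usp2 and Tef complete the 10 genes and belong to groups described with them.

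A rule of size was applied as a description, with no test. In all 6 mice 34 genes were 1.5-fold or more away from the pool of the same experiment, 21 higher (0.187%) and 13 lower (0.116%). Among the genes that passed the filter on signal, the higher and lower genes differed in level. Of the 21 higher genes, 13 had both pool signals under the array median and 18 at least 1, none averaged over 1000 in the medium mice, and the median of their means was 126. Of the 13 lower genes none had a pool under the array median, 3 averaged over 1000, and the median was 282. The filter kept only probe sets with a mean log2 signal at or above the median. It would mostly remove a gene with dim pools and still lower medium mice. A gene with dim pools could pass it through higher irradiated mice. The contrast in pool level therefore follows largely from the filter and says little about the genes. With arrays centred on their median the 1.5-fold rule gave 11 higher and 21 lower genes, and with quantile normalization 12 and 13.

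The largest of the higher genes were Nkx2-6, a homeobox gene, Ccdc8, Cldn22, a claudin, Adamts5, a matrix protease, and Adcy5, an adenylyl cyclase. Nkx2-6 had 173, 116 and 167 in the experiment 1 mice, against 18.7 in their pool, and 170.2, 169 and 241 in the experiment 2 mice, against 26.5 in theirs, which gave 2.58 ± 0.69 (adjusted p = 0.305 by limma). Its other probe set, also above the median level, gave 0.61, and there the mice of experiment 1 had 146, 117 and 122, against 125 in their pool. Cldn22 had 119 to 169 in the mice, against 45.0 and 18.8 in the pools. Adamts5 had 125, 151 and 184 in the experiment 1 mice, against 13.3 in their pool, and 247, 198 and 195 in the experiment 2 mice, against 127 in theirs. Its difference was 2.96 in experiment 1 and 0.71 in experiment 2, and without the pool of experiment 1 it was 0.68. Adcy5 had 61.2, 134 and 82.2 in the experiment 1 mice, against 17.4 in their pool, and 129, 100.3 and 144 in the experiment 2 mice, against 61.6 in theirs, at 1.96 in experiment 1 and 0.92 in experiment 2. Other probe sets ran from -0.20 to 0.62 for Adamts5 and from -0.75 to 0.16 for Adcy5. For the probe sets tested, all pool signals of these genes but that of Adamts5 in experiment 2 lay under the array median and carry the uncertainty given for Ccdc8.

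The largest of the lower genes were Obp2a, an odorant-binding lipocalin, Cphx3, a homeobox gene, Usp2, Zbtb16 and E2f8. Obp2a had 434, 143 and 508 in the experiment 1 mice, against 1085 in their pool, and 51.0, 337 and 77.3 in the experiment 2 mice, against 999 in theirs. Every mouse was below both pools, with a difference of -2.42 ± 0.97 (adjusted p = 0.738 by limma). On the log2 scale the mice differed from each other more than the nearest of them did from its pool. E2f8, a repressor of the E2F family that shapes hepatocyte ploidy, had 113, 107 and 94.0 in the experiment 1 mice, against 208 in their pool, and 95.8, 36.7 and 87.9 in the experiment 2 mice, against 357 in theirs, without overlap, at -1.61 ± 0.45 (adjusted p = 0.336). Cphx3 overlapped, with 17.2 to 115 in the mice against 201 and 95.8 in the pools. The rest of the lower genes were Ugt2b38, Dbp, Cadm3, Csdc2, Lpin1, St3gal5, Slc22a5 and Herpud1.

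The 2 experiments share no array, so their differences from control can be set side by side. Across the 11216 genes Pearson's r between them was 0.0975 and Spearman's rho 0.123, and 55.5% of genes had the same sign. These are descriptions across genes, which are not independent replicates. In the 2804 genes with the highest mean signal r was 0.385 and 60.7% shared the sign, against 0.0149 and 50.8% in the 2804 with the lowest. The lists described next shared the sign at 79.2% of the endoplasmic reticulum (ER) stress genes, 77.8% of the heat shock genes, 76.5% of the clock genes and 80.6% of the oxidative phosphorylation genes. Shares in that range or above were not particular to them. They were 92.9% of the male-biased, 84.6% of the MHC, 79.2% of the acute phase, and 77.8% each of the gluconeogenesis and the apolipoprotein genes. Other lists lay below the share of all genes, at 52.6% of the p53 genes, 50% of the antioxidant genes, 42.1% of the cholesterol genes, 41.7% of the DNA repair genes, and 40% each of the female-biased and the glycosphingolipid genes.

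**Figure D2:**
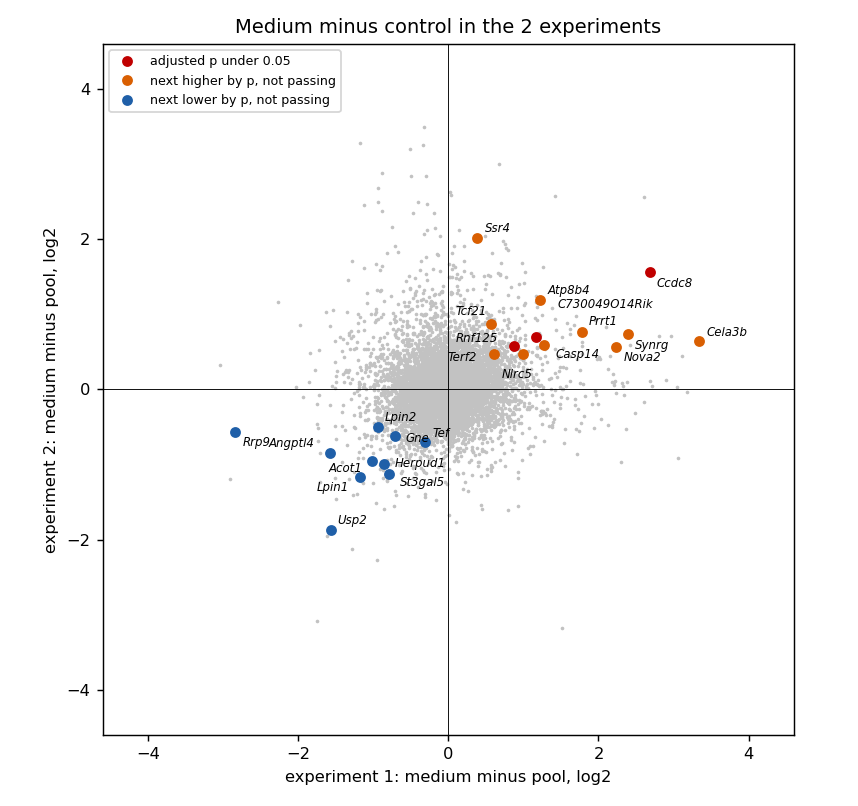
Difference of medium mice from the pool of their experiment in log2 units, experiment 1 on the horizontal and experiment 2 on the vertical axis, for 11216 genes (grey), with the 3 genes past the threshold (red) and the next 10 higher (orange) and lower (blue) coloured. The cloud is round, with r of 0.0975, and several next higher genes lie further from 0 in experiment 1 than in experiment 2.

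Within experiment 1 limma called 14 genes (0.125%, 12 higher and 2 lower), among them Ccdc8, Rnf125 and C730049O14Rik, and within experiment 2 it called 2 (0.0178%), Art1 and Ssr4. The difference of the effect between experiments passed at no gene, with 366 (3.26%) at an unadjusted p under 0.05. The smallest p values were those of Spen, a corepressor, Cela3b and Art1, a cell-surface ADP-ribosyltransferase. Spen was -0.034 from its pool in experiment 2 and 3.18 in experiment 1, where the pool stood at 9.49 (difference -3.21 ± 0.55, adjusted p = 0.187). Art1 was 3.20 in experiment 2, where the pool stood at 19.3, and -0.51 in experiment 1 (difference 3.71 ± 0.73, adjusted p = 0.233). In each of the 3 genes the larger effect stood against the lower pool signal.

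The circadian clock of the liver runs on the activators Arntl, Clock and Npas2, which drive their own repressors Per and Cry, the nuclear receptors Nr1d1 and Nr1d2, and output factors such as Dbp and Tef. Of 17 clock genes tested in the medium livers 4 were higher and 13 lower, with a median difference of -0.34 (-0.37 in experiment 1 and -0.36 in experiment 2), against 0.0063 over all genes. None passed, and at an unadjusted p under 0.05 there were 1 higher and 5 lower, where all genes had 3.5% higher and 2.49% lower. The median over the 17 genes was below 0 in each of the 6 mice, from -0.44 to -0.27, and the 3 mice of an experiment share their pool. The part of the hour of sampling in these values was not tested.

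The genes on the lower side were outputs and repressors. Usp2, a deubiquitinase under clock control, had 89.1, 98.7 and 178 in the experiment 1 mice, against 359 in their pool, and 215, 197 and 359 in the experiment 2 mice, against 924 in theirs. No mouse lay above either pool, but the highest mouse of experiment 2 was level with the pool of experiment 1. The difference was -1.72 ± 0.36 (adjusted p = 0.183 by limma). A second probe set gave -2.16, and it passed (adjusted p = 0.012) where it was taken to stand for the gene, a choice tried after seeing the data. Dbp, a transcription factor at the end of the clock, had 493, 482 and 621 in the experiment 1 mice, against 1290.2 in their pool, and 471, 1096 and 1533 in the experiment 2 mice, against 2472 in theirs. Each mouse was below its own pool, 1 mouse of experiment 2 was above the pool of experiment 1, and the difference was -1.34 ± 0.36 (adjusted p = 0.305).

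Tef, a relative of Dbp, had 1381, 1465 and 1401 in the experiment 1 mice, against 1758 in their pool, and 1446, 1775 and 1865 in the experiment 2 mice, against 2749 in theirs, at -0.51 ± 0.12 (adjusted p = 0.274). 2 mice of experiment 2 were above the pool of experiment 1. Its other probe sets gave -0.90 and, for a dim one, 0.98. Nr1d2, a repressor of Arntl, had 4027, 3765 and 4458 in the experiment 1 mice, against 5061 in their pool, and 3961, 4205 and 4749 in the experiment 2 mice, against 5509.7 in theirs, below both pools in every mouse, at -0.34 ± 0.092 (adjusted p = 0.325), and a dimmer probe set gave -1.04. Per1, a repressor that responds quickly to hormones and feeding, was at -1.10 ± 0.54 and Nr1d1 at -0.53 ± 0.25.

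The activators were not on that side. Arntl had 662, 744 and 320.1 in the experiment 1 mice, against 267 in their pool, and 555, 471 and 363 in the experiment 2 mice, against 341 in theirs, at 0.71 ± 0.26 (adjusted p = 0.695), and each mouse was above its own pool. Npas2 was at 0.95 ± 0.48, also higher in 6 of 6 mice, and Clock, at 0.0065 ± 0.19, was near 0. Over the clock list the median was 0.033 for medium minus low and 0.027 for medium minus high.

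**Figure D3:**
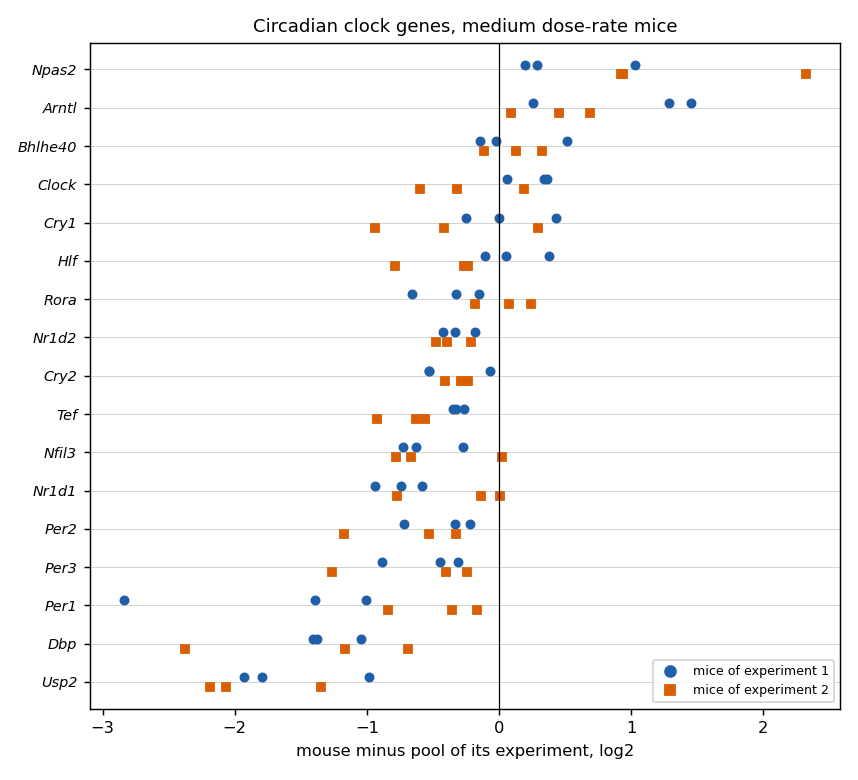
Difference of each medium mouse from the pool of its experiment in log2 units (horizontal axis) for 17 circadian clock genes, ordered by the fitted difference, with circles for experiment 1 and squares for experiment 2. Npas2 and Arntl lie above 0 in all 6 mice and Usp2, Dbp, Per1, Per3, Per2, Tef, Cry2 and Nr1d2 below 0 in all 6.

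Heat shock genes encode chaperones and cochaperones that fold proteins and are switched on together by Hsf1. Of 18 tested, 5 were higher and 13 lower in the medium livers, with a median of -0.33, none passing and 6 lower at an unadjusted p under 0.05 (2.49% of all genes). The median was -0.62 in experiment 1 and -0.072 in experiment 2, and without the pool of experiment 1 it was -0.098. Chordc1, a cochaperone of Hsp90, had 2034, 2246 and 2513 in the experiment 1 mice, against 3441 in their pool, and 2068, 1893 and 2250.2 in the experiment 2 mice, against 2999.9 in theirs, without overlap, at -0.57 ± 0.15 (adjusted p = 0.305 by limma). It differed by like amounts in both experiments.

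Hspa8, the constitutive Hsp70, had 9156, 5994 and 8999 in the experiment 1 mice, against 16779 in their pool, and 3787, 2963 and 3189.7 in the experiment 2 mice, against 4389 in theirs, so its pool signal in experiment 1 was far above all other values, and the difference was -0.75 ± 0.22 (adjusted p = 0.409). Probe sets of Hspa8 with more signal gave -0.49 and -0.46 and a dimmer one 0.70. Stip1, which links Hsp70 and Hsp90, was at -0.65 ± 0.20 and Hspa4l, an Hsp110 relative, at -0.43 ± 0.15, both with all mice below both pools. Hsph1, which recharges Hsp70 with ATP, was at -0.91 ± 0.32 and Hspb1, a small heat shock protein, at -0.58 ± 0.21. The inducible Hspa1b scattered, with 1629.5, 750.3 and 2755 in the experiment 1 mice, against 5454 in their pool, and 5164, 1249.7 and 1415 in the experiment 2 mice, against 1945 in theirs. Hspe1, the mitochondrial cochaperonin, was above both pools in every mouse, at 0.23 ± 0.13.

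The ER stress list holds chaperones and degradation factors of the secretory pathway and targets of Atf4. Of 24 genes tested, 4 were higher and 20 lower, with a median of -0.35 (-0.42 in experiment 1 and -0.23 in experiment 2). None passed, and 1 higher and 8 lower had an unadjusted p under 0.05, against 3.5% higher and 2.49% lower of all genes. The medians of 5 mice lay between -0.50 and -0.28, while mouse M2-1 was at 0.17. Herpud1, which recruits misfolded proteins for degradation, had 10331, 12225 and 13916 in the experiment 1 mice, against 21948 in their pool, and 14408, 12305 and 14529.6 in the experiment 2 mice, against 27251 in theirs. The groups were apart by more than the range of the mice, at -0.93 ± 0.20 (adjusted p = 0.217 by limma), and its second probe set gave -0.90.

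Dnajb9, a cochaperone of the ER lumen, had 6061, 6225 and 7468 in the experiment 1 mice, against 11526 in their pool, and 5733, 4478 and 5547 in the experiment 2 mice, against 7145 in theirs, at -0.63 ± 0.20 (adjusted p = 0.511), with 1 mouse of experiment 1 above the pool of experiment 2. Canx, a lectin chaperone, was at -0.57 ± 0.22, and its other probe sets gave -0.14 and -0.02. Creld2, a protein of the ER lumen, had 2889, 2746 and 2908 in the experiment 1 mice, against 5813 in their pool, and 4138, 2109.9 and 2377 in the experiment 2 mice, against 4241 in theirs, at -0.83 ± 0.37, with the value of M2-1 close to its pool. Chac1, a target of Atf4 that degrades glutathione, was at -0.69 ± 0.29, whereas Atf4 itself was at 0.39 ± 0.14, higher in 6 of 6 mice. Medium minus low had a median of -0.12 over the list, and medium minus high of -0.028.

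**Figure D4:**
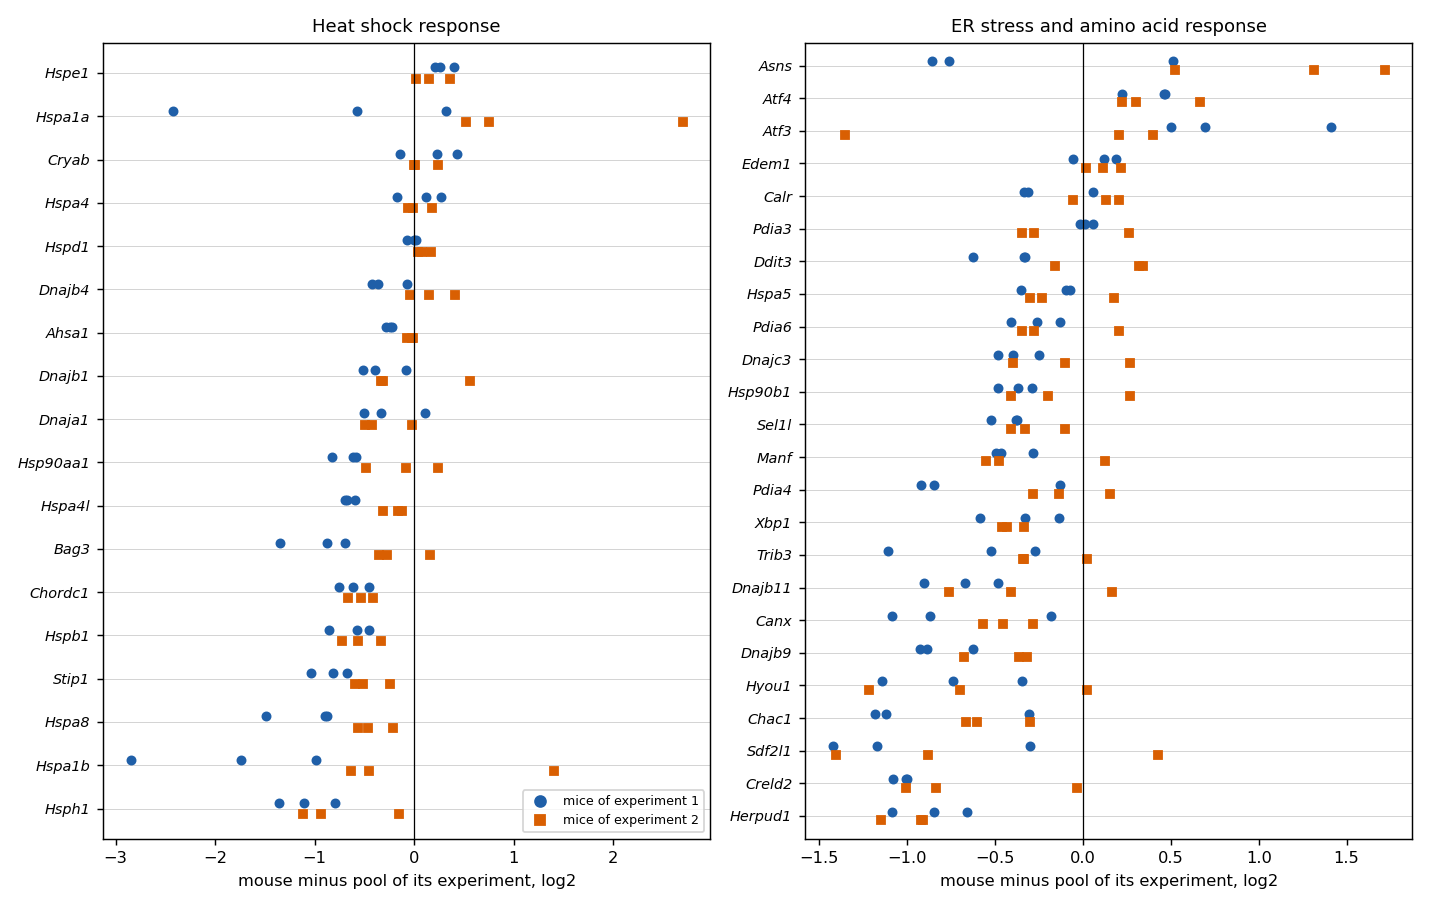
Difference of each medium mouse from the pool of its experiment in log2 units (horizontal axis) for 18 heat shock genes (left) and 24 ER stress genes (right), with circles for experiment 1 and squares for experiment 2. The heat shock genes have a median of -0.62 in experiment 1 and -0.072 in experiment 2, and Herpud1 lies below 0 in all 6 mice.

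The promoters of 4 of these genes are shown because they hold the element by which their group is known to be switched. They were chosen after the values and matches had been seen. Each runs 5′ to 3′ from 250 bases before the annotated start (Chordc1 to 20 bases after it), in lower case with the matched element in capitals. They come from RefSeq, build GRCm38.p6. Tef lies at chr15:81802423-81802672 (plus strand) and holds the E-box CACGTG, the site of Arntl and Clock. Chordc1 lies at chr9:18292017-18292286 (plus strand) and holds 3 overlapping heat shock elements (GAA, TTC and GAA, each 2 bases apart, on either strand). Creld2 at chr15:88819396-88819645 (plus strand) and Canx at chr11:50325674-50325923 (minus strand) hold the ER stress response element, CCAAT and CCACG 9 bases apart on either strand.
Tef: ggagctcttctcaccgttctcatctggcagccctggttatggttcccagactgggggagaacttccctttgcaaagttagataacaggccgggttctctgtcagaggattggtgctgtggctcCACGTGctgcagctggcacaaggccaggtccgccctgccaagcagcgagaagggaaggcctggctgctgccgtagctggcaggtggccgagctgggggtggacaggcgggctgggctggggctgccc
Chordc1: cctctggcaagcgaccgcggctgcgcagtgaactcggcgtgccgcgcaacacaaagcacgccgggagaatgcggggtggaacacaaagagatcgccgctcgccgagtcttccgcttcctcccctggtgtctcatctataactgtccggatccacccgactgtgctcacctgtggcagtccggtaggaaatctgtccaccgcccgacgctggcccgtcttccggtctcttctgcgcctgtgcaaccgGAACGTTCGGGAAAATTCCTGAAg
Creld2: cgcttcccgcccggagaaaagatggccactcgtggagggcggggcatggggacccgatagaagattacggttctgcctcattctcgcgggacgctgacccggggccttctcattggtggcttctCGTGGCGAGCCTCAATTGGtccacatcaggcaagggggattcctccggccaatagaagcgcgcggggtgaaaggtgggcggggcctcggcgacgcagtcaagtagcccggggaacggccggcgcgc
Canx: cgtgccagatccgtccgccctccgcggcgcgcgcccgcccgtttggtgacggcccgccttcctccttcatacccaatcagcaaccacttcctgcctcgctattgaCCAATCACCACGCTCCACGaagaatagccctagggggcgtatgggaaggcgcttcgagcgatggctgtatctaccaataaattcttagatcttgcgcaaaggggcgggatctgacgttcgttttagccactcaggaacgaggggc

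Each motif was searched on both strands in 300 bases around the start of 32851 promoters. The E-box was in the promoters of 3 of 15 clock genes with an entry (Cry1, Per1 and Tef), and in 7.15% of all promoters. The heat shock element was found for 4 of 15 heat shock genes (Chordc1, Hspd1, Hspe1 and Hsph1), against 0.603% of all promoters. The ER stress element was found for 7 of 22 genes (Calr, Canx, Creld2, Dnajc3, Hsp90b1, Hspa5 and Pdia6), against 0.119%. These counts are by gene, while the percentages are over promoters. Counted by promoter, the lists had 4 of 20, 5 of 21 and 7 of 22 in that order. All holders of the E-box and of the ER stress element had differences below 0, from -0.15 for Cry1 to -1.10 for Per1 and from -0.050 for Calr to -0.83 for Creld2. Of the heat shock holders Hspe1 (0.23) and Hspd1 (0.039) were above 0, and Chordc1 (-0.57) and Hsph1 (-0.91) below. None of these genes passed. With or without the element, 13 of 17 clock genes, 13 of 18 heat shock genes and 20 of 24 ER stress genes were below 0. Whether an element goes with the direction was not tested.

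Of 17 genes induced by glucocorticoids, hormones that rise with stress and with the active phase, 8 were higher and 9 lower, with a median of -0.12. The median was 0.089 in experiment 1 and -0.28 in experiment 2, and without the pool of experiment 2 it was 0.11. Zbtb16, a zinc finger factor, had 251, 410.1 and 307 in the experiment 1 mice, against 779.5 in their pool, and 211, 206 and 307 in the experiment 2 mice, against 1060.5 in theirs, without overlap, at -1.70 ± 0.43 (adjusted p = 0.301 by limma), and its other probe sets gave -1.40 and -1.20. Fkbp5, which limits the glucocorticoid receptor, was at -0.56 ± 0.20 and Klf9 at -0.40 ± 0.16, both lower in 6 of 6 mice. G6pc, which releases glucose, had 14292, 17445 and 17254 in the experiment 1 mice, against 9009.9 in their pool, and 18116, 21565 and 11203 in the experiment 2 mice, against 9656 in theirs, all above both pools, at 0.81 ± 0.32 (adjusted p = 0.738).

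Genes of the damage response lay on both sides of 0. Of 19 targets of p53 and checkpoint genes 9 were higher and 10 lower, with a median of -0.018 and none at an unadjusted p under 0.05. Those with the smallest p were Sesn1, an inhibitor of growth signalling (0.28 ± 0.22, with -0.23, -0.10 and -0.59 from other probe sets), Ccng1, a cyclin (-0.19 ± 0.15), Chek2, a checkpoint kinase (-0.38 ± 0.30), and Gadd45a, a damage sensor (-0.41 ± 0.36). Ccng1 had 1555, 1947 and 1817 in the experiment 1 mice, against 1932 in their pool, and 1471, 1442 and 1978 in the experiment 2 mice, against 1914 in theirs, and mice and pools overlapped. Of 24 DNA repair genes 14 were higher and 10 lower, with a median of 0.02. Brca2, of homologous recombination, was at 0.60 ± 0.27 and Prkdc, of end joining, at 0.70 ± 0.33, with adjusted p of 0.795 and 0.827. Of 24 antioxidant genes and Nrf2 targets 10 were higher and 14 lower, with a median of -0.014 and none at an unadjusted p under 0.05, and Gclm, of glutathione synthesis, was at -0.25 ± 0.13. Of 17 cell cycle genes 7 were higher and 10 lower, with a median of -0.015, and after E2f8 the smallest p was that of Cdk1, which drives mitosis (-0.63 ± 0.35).

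Cholesterol synthesis stood on the other side of 0. Of its 19 genes tested 17 were higher and 2 lower, with a median of 0.28 and none passing. At an unadjusted p under 0.05, 2 were higher, where all genes had 3.5% higher. The median was -0.01 in experiment 1 and 0.43 in experiment 2. Sc5d, a late enzyme of the pathway, had 23284, 24049 and 20742 in the experiment 1 mice, against 17403 in their pool, and 22366, 26492 and 21748 in the experiment 2 mice, against 18128 in theirs, all above both pools, at 0.38 ± 0.14 (adjusted p = 0.687 by limma). Hmgcs1, an early enzyme, was at 0.44 ± 0.18, also without overlap. Dhcr7 was at -0.010 in experiment 1 and 0.97 in experiment 2, and Sqle at 0.20 and 1.13. The median of medium minus low was 0.25 and of medium minus high -0.18.

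Of 21 genes of fatty acid and triglyceride synthesis 14 were higher and 7 lower, with a median of 0.083. Srebf1, the factor that drives them, had 10482, 10050.4 and 11459 in the experiment 1 mice, against 6487 in their pool, and 12441, 18954 and 10472 in the experiment 2 mice, against 8608 in theirs, without overlap, at 0.68 ± 0.28 (adjusted p = 0.738), and Gpam, which starts glycerolipid synthesis, was at 0.64 ± 0.27, also above both pools in every mouse. A second probe set of Gpam gave 0.082, with 1401 to 2371 in the mice, against 1984 and 1306 in the pools. Of 31 genes of fatty acid oxidation and targets of PPAR alpha 8 were higher and 23 lower, with a median of -0.11 and 6 lower at an unadjusted p under 0.05 (2.49% of all genes). After Angptl4 and Acot1 these were Hsdl2 (-0.42 ± 0.11, below both pools in every mouse), Acot3 (-1.25 ± 0.56), Creb3l3 (-0.23 ± 0.10) and Acot4 (-0.57 ± 0.27). Pparg, the PPAR of adipocytes, was at 0.71 ± 0.28, with every mouse above both pools.

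Of 31 oxidative phosphorylation genes 26 were higher and 5 lower, with a median of 0.078 and none at an unadjusted p under 0.05. With arrays centred on their median 13 were higher and 18 lower, with a median of -0.012, and that scaling moved the median of all genes by -0.09. It also turned the medians of the lists of DNA repair (-0.07), fatty acid and triglyceride synthesis (-0.0073), gluconeogenesis (-0.022), bile acids (-0.087), P450 and conjugating enzymes (-0.089), methionine metabolism (-0.048), acute phase proteins (-0.0086), interferon response (-0.034) and hepatocyte markers (-0.0018). Quantile normalization turned those of bile acids (-0.064), P450 and conjugating enzymes (-0.039), methionine metabolism (-0.019), acute phase proteins (-0.01) and hepatocyte markers (-0.023). No other list median changed sign under these scalings. Leaving out a pool turned the medians of the interferon (-0.085), acute phase (-0.059) and P450 (-0.028) lists without that of experiment 1, and of the gluconeogenesis (-0.03), female-biased (0.41) and glucocorticoid lists without that of experiment 2. Leaving out 1 mouse turned those of the cell cycle (0.053 without M1-2) and bile acid (-0.028 without M1-3) lists, both close to 0. It also turned that of the list of the 3M complex and ubiquitin ligases, from -0.082 to 0.049 without M1-3. Ndufv2, of complex I, was at 0.16 ± 0.085 and Cox4i1, of complex IV, at 0.13 ± 0.094, both with all mice above both pools, and other probe sets of Ndufv2 gave -0.12 and 0.17.

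Among the other metabolic lists no member passed. Of 18 apolipoprotein and lipoprotein genes 12 were higher, with a median of 0.11, and Apoa1 was at 0.21 ± 0.091. Of 19 bile acid genes 10 were higher, with a median of 0.0035, and Hsd3b7, an enzyme of bile acid synthesis, had 24642, 23655 and 21562 in the experiment 1 mice, against 18591 in their pool, and 28369, 25507 and 27787 in the experiment 2 mice, against 20825 in theirs, without overlap, at 0.35 ± 0.10 (adjusted p = 0.359). Of 18 genes of gluconeogenesis, glycogen and insulin action 11 were higher, with a median of 0.068, and Pck1, the first enzyme of the route that ends in G6pc, was at -0.41 ± 0.23. Of 21 cytochrome P450, UGT and SULT genes 11 were higher, with a median of 0.0014. Of 16 urea cycle and amino acid genes 13 were higher, with a median of 0.10, of 14 genes of methionine and one-carbon metabolism 7, with 0.042, and of 24 acute phase and plasma protein genes 14, with 0.082. Bhmt, which remethylates homocysteine, was at 0.19 ± 0.088, with all mice above both pools.

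Genes that differ between the sexes follow growth hormone pulses in the liver. Of 14 male-biased genes 3 were higher and 11 lower, with a median of -0.34 (-0.37 in experiment 1 and -0.28 in experiment 2). By mouse this median ran from -0.80 to 0.21. Keg1, a glycine acyltransferase relative, had 7998, 10486 and 9186 in the experiment 1 mice, against 16037 in their pool, and 9276, 6399 and 7480.2 in the experiment 2 mice, against 13032 in theirs, without overlap, at -0.79 ± 0.27 (adjusted p = 0.58 by limma). Of 10 female-biased genes 4 were higher and 6 lower, with a median of -0.19, which was 0.43 in experiment 1 and -0.50 in experiment 2.

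The 5 genes with the largest spread among medium mice of the same experiment include such genes. Hsd3b5, a male-specific steroid dehydrogenase, had 3478, 1272 and 7002 in the experiment 1 mice, against 7043 in their pool, and 5921, 331 and 37.5 in the experiment 2 mice, against 1030.5 in theirs, an SD of 2.65 log2 units within experiment against a median of 0.216 over all genes. Cyp2b9, a female-biased P450, had 2135, 2492 and 963 in the experiment 1 mice, against 1271 in their pool, and 329.5, 3072 and 5198 in the experiment 2 mice, against 3887 in theirs (SD 1.57). Ces5a, a secreted carboxylesterase (1.75), Lama5, a laminin chain (1.74), and Cplane2, a GTPase of cilia (1.63), complete the 5.

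**Figure D5:**
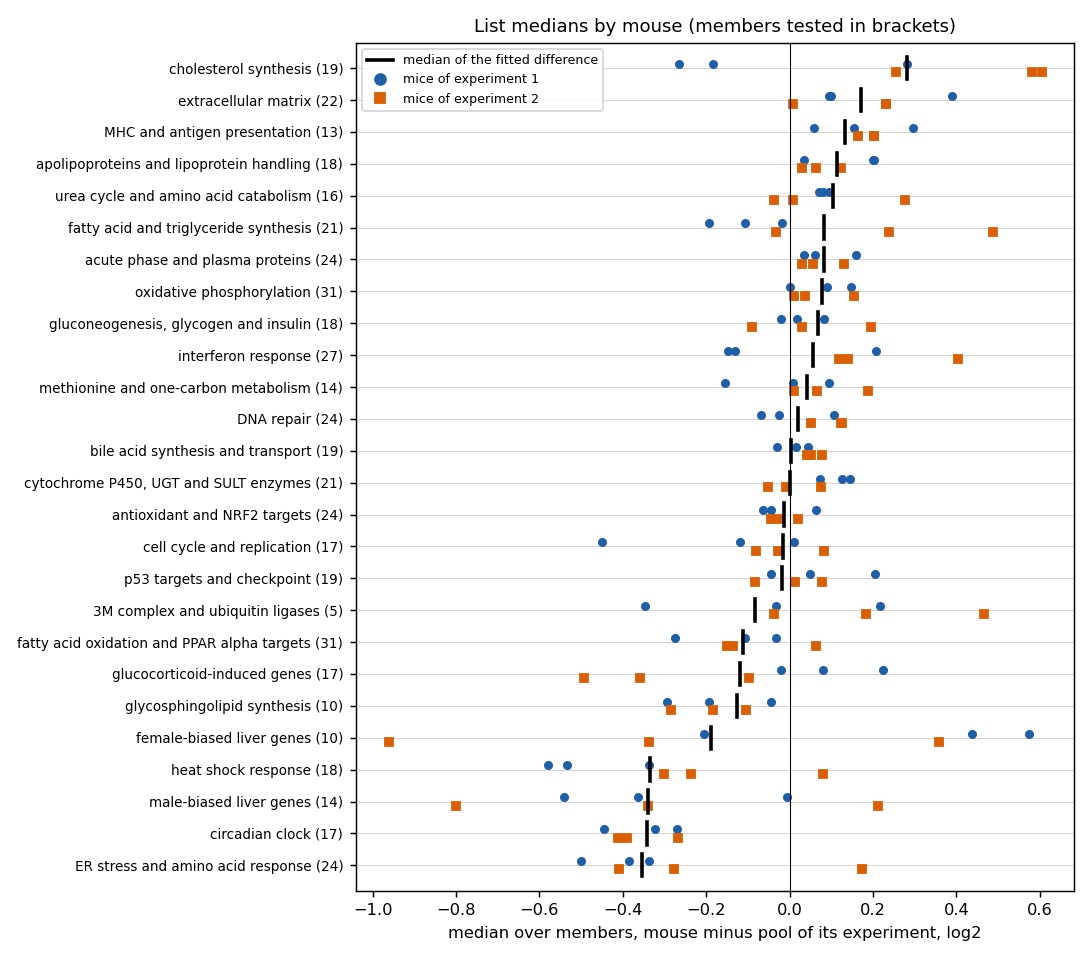
Median over the members of each of 26 pathway lists of the difference between a medium mouse and the pool of its experiment, in log2 units (horizontal axis), with circles for experiment 1, squares for experiment 2 and a bar at the median of the fitted differences. The clock and glycosphingolipid lists lie below 0 in all 6 mice. Above 0 in all 6 lie the lists of extracellular matrix, MHC, apolipoproteins, acute phase proteins and oxidative phosphorylation, though M1-1 is close to 0 for the last. The cholesterol list has medians of -0.01 in experiment 1 and 0.43 in experiment 2, but mouse M1-1 (0.28) lies above mouse M2-3 (0.26).

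Of 27 interferon response genes 19 were higher, with a median of 0.056 (-0.025 in experiment 1 and 0.24 in experiment 2). At an unadjusted p under 0.05, where 3.5% of all genes were higher, 2 were higher: Oasl1, an antiviral protein (0.81 ± 0.35), and Ifi47, an immunity GTPase (0.49 ± 0.23). In both, all mice were above both pools. Of 13 MHC and antigen presentation genes 12 were higher, with a median of 0.13, and after Nlrc5 the smallest p was that of H2-Eb1, a class II chain (0.56 ± 0.30). Of 22 extracellular matrix genes 17 were higher, with a median of 0.17. At an unadjusted p under 0.05, 3 were higher (3.5% of all genes were): Mmp2, a gelatinase (1.11 ± 0.33, while its other probe set gave 0.044), Sparc, a collagen-binding protein (0.47 ± 0.20), and Lamb1, a laminin chain (0.64 ± 0.29). None passed. Other probe sets gave 0.28 and 0.63 for Sparc and 0.57, 1.12 and, for a dim one, -0.52 for Lamb1. Of the 5 genes tested on the list of the 3M complex and ubiquitin ligases, Ccdc8 and Rnf125 rose and the other 3 were below 0, among them Cul7 at -0.39 ± 0.21.

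Markers of other cell types were read in the same fit, and fewer cells of a type cannot be told apart from less RNA per cell in whole liver. All 5 B cell markers tested, of 9 on the array, were above 0, with a median of 0.57 and none at an unadjusted p under 0.05, and their summed signal was 539.9 to 825 in the medium mice, against 409.9 and 487 in the pools. Pax5, which fixes B cell identity, was at 1.00 ± 0.59 and Ms4a1, the CD20 gene, at 0.59 ± 0.32. The second probe sets of Pax5 and Ms4a1, both dim, gave -0.71 and -0.094. Ms4a1 and the marker Fcmr had both pool signals under the array median, and Pax5 and Cd22 had that of experiment 1 under it. The filter on signal could keep such a marker through higher irradiated mice and would mostly remove it with lower ones. The count of B cell markers above 0 is therefore not independent of the filter, whose part in it was not tested. Of 6 plasma cell markers 5 were above 0, with a median of 0.46, and Ighm, the heavy chain of IgM, had 4006, 1093 and 3587 in the experiment 1 mice, against 961 in their pool, and 2694, 5072 and 2995 in the experiment 2 mice, against 1621 in theirs. It was at 1.23 ± 0.51 (adjusted p = 0.738 by limma), but its other probe sets ran from -0.87 to 1.47. The summed signal of the plasma cell markers was 16960 to 25292 in the medium mice, against 19807 and 24008 in the pools.

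The remaining cell types had medians of -0.051 over 15 macrophage genes (7 higher), -0.08 over 12 genes of sinusoidal endothelium (5 higher), 0.13 over 10 stellate cell genes (6 higher) and 0.088 over 10 hepatocyte genes (8 higher). Leaving out 1 pool turned the sign for 3 of these, with 0.20 for macrophages and 0.012 for endothelium without the pool of experiment 2, and -0.065 for stellate cells without that of experiment 1. For rarer cells the markers tested were few: 4 of neutrophils, 2 of T cells, 2 of NK cells, 3 of cholangiocytes, 3 of erythroid cells, 4 of adipocytes, 4 of pancreatic acinar cells and 1 of skeletal muscle. Their medians were 0.15, -0.34, -0.12, 0.39, 0.24, 0.11, 0.19 and -0.0073 in that order, and no marker passed. Without the pool of experiment 1 those of neutrophils (-0.062), adipocytes (-0.14) and acinar cells (-0.042) were below 0, and without the pool of experiment 2 those of NK cells (0.16) and skeletal muscle (0.66) were above 0. The summed signal of the acinar markers was 1958 to 3801 in the medium mice, against 1939 and 2055 in the pools, most of it Cela1, at 1356 to 3374, against 1750.5 and 1608. No listed marker tested was at 0 on any of the 8 arrays. The markers tested had passed the filter on signal, so this does not show that a cell type was present. The part of any cell type in the differences above was not tested.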

How the data were processed

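Total RNA of livers was hybridized as biotinylated cRNA to Affymetrix arrays, per the labels' protocols. The authors deposited linear intensity values made with MAS5, per the submitters' processing notes, which give no version here. Each array had a mean of 500.0 once its highest and lowest 2% were trimmed. Of 45101 probe sets, 34945 had 1 gene symbol in the platform annotation (18193 genes), 932 several, 9160 none, and 64 were array controls. Current names came from a RefSeq table of GRCm38.p6.

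Signals kept that scale and were tested as log2(signal + 7.12), the pseudocount being their 10th percentile. This understates the change of dim genes. Probe sets with a mean log2 signal at or above the median were kept (22519), 1 per gene, those not ending in _s_at or _x_at preferred and then the highest mean, which left 11216 genes. limma 3.58.1 in R 4.3.3 (lmFit, eBayes with a variance trend) was fitted to 20 arrays, with terms for dose level and for experiment, leaving 15 residual degrees of freedom. Tests were two-sided, with Benjamini-Hochberg adjustment at 0.05. Effects within an experiment and their difference came from a fit of group means to the same 20 arrays. The number of arrays, above all 2 pools, limits the precision. The procedure was tested on simulated data.

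The members of the comparison and the 40 lists (26 of pathways, 14 of cell types, with 549 of 701 symbols tested) were chosen with earlier results of these data known, and lists are described by counts and medians without a test. Genes named are those past the threshold, the 10 next by p in each direction with the same sign in both experiments, the 5 largest by the 1.5-fold rule in each direction, up to 4 members of each list by p, 3 each for the other contrasts, and the 5 with the largest spread. Other genes named, among them list members beyond the fourth, were chosen after their values were seen. Alternatives covered the pseudocount, the filter, scaling, the model, the choice of probe set and each array left out.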

Additional observations from a re-analysis of the deposited data

Results flagged for a closer look

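Of 63 tests for a mouse apart from the other 5, on 31 genes and 32 list medians, 2 stood out, and chance gives about 1 in 20. For the ER stress and amino acid response list the median difference of mouse M2-1 from its pool was 0.17288 (log2), while the other 5 medium mice lay between -0.50017 and -0.27786. For Acot1, lower than its pool in every mouse, mouse M1-3 was at -1.8577, where the others lay between -1.0027 and -0.54681. Both mice stayed in the fits.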

How the results depend on the processing

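The count of 3 genes in medium against control was 1 with arrays centred on their median (Ccdc8), 1 without a variance trend (Ccdc8), 9 from the medium arrays and pools alone (Rnf125, C730049O14Rik, Nkx2-6 and Pde4b higher, and Herpud1, Lpin1, Lpin2, St3gal5 and Zbtb16 lower), 260 with pools weighted by their number of mice (144 higher and 116 lower) and 14 from experiment 1 alone. Leaving out single arrays gave 1 (without the pool of experiment 1, and then Ssr4) to 22 (without the pool of experiment 2). It was 5 without low mouse 2 of experiment 1 or without high mouse 1 of experiment 2. Over the alternatives the difference of Rnf125 was 0.557 to 0.894, of C730049O14Rik 0.693 to 1.17 and of Ccdc8 1.56 to 2.68. Each was lost under 4 of those in which it was tested. Ccdc8 was not tested among the top 30% of probe sets, as its signal was too low. The 34 genes of the 1.5-fold rule became 19 with a pseudocount at the 25th percentile, 197 with no filter (more genes enter), 9 among the top 30% of probe sets, and 41 to 420 with an array left out (420 without the pool of experiment 2, 328 without that of experiment 1, 56 without M2-1, 52 without M1-2, 41 without M1-1), where fewer mice have to pass. The difference between experiments gave 1 gene with a pseudocount of 1, and 0 to 1 with an array left out (1 without M1-3). Medium against low and against high stayed at 0 under every alternative run.

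Signs turned for Angptl4 with no filter (0.421, adjusted p = 0.97, another probe set) and for Ssr4 among the top 30% of probe sets (-0.151, adjusted p = 0.846, another probe set). The causes of other changes were not tested. With the replicate number as a block, medium against low and against high gave 0 genes. Medium against control cannot be blocked with 1 pool per experiment. Of 12 pairs of same-numbered mice (each medium mouse with a low and with a high mouse of its experiment) 6 had a correlation of their deviations over 0.1, with a range of -0.152 to 0.3, so the numbers were not taken as pairing. In 8 of the 12 pairs, all 6 of experiment 1 among them, the medium mouse correlated best with its own number, which is a hint from the data and not from the design. Of the list medians under these alternatives 29 moved by more than the spread between mice and 1006 did not. Of the 21 higher genes of the 1.5-fold rule 13 had both pools under the array median, where a signal is not shown to be above background.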
